A study of Homo sapiens with 12 samples.

Results

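The comparison described here sets 143B cells exposed to BSG against control 143B cells, the group named NC. Members are the libraries whose titles carry BSG 1 to 3 and NC 1 to 3, so 6 of the series' 12 RNA-seq libraries enter, with all 15407 genes that passed a low-count filter out of 24180 gene symbols. 143B is an established human osteosarcoma line derived from HOS cells, labelled wild type in all groups, and all libraries are of this 1 line, grown in DMEM with 10% fetal bovine serum. Per its title the series concerns borosilicate bioactive glass and mild magnetic heating of bone tumours, and the other 2 groups of 3 libraries, M-BSG and M-BSG-Hot, carry a magnetic version of the glass, named 5-MNP-BSG in the titles, with a plus sign for M-BSG-Hot. All 12 samples, NC included, bear 1 identical treatment note about the magnetic system and its alternating field, so the labels do not state for each group what was given, at which dose or for how long. Nothing in them says that the 3 libraries of a group were separate cultures, and p-values therefore measure only the spread between these libraries, which may be technical.

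Bioactive borosilicate glasses are network glasses of silica and boron oxide that dissolve in body fluids and release their ions, which raises the local pH and forms a mineral layer that bone can bond to. Cells meet such changes in their surroundings first with immediate-early genes, which need no new protein to be switched on and mostly encode transcription factors (FOS, EGR) and short-lived regulators. Many of these RNAs, and those of the inhibitors they induce, last only minutes to hours, so their levels report the recent past of a culture. In a bulk library a lower share of counts does not separate fewer cells of a kind from less RNA per cell.

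Total counts were 34434993 to 36790336 per NC library and 37593087 to 37934039 per BSG library. BSG 1 stood apart from the other BSG libraries. Its counts differed from those of BSG 2 and BSG 3 by a chi-square per degree of freedom of 60.9 and 44.9, against 7.48 between BSG 2 and BSG 3 and 3.37 to 9.91 among the NC libraries. On the first principal component of the 6 libraries, which held 59.4% of the variance, all NC libraries lay at one end and all BSG libraries at the other. The second, with 16.0%, set BSG 1 at 30.4 and BSG 2 and BSG 3 at -22.7 and -19.2. Ribosomal protein genes took 11.4% of the counts of BSG 1, 8.47% and 9.25% in BSG 2 and BSG 3 and 7.80% to 8.46% in NC, and mitochondrial genes took 5.98% to 7.47% in the 6 libraries (the widest 95% Wilson interval is 0.0102 percentage points on each side, for counting error only). Counts of group results are therefore also given without BSG 1. The labelled cell type was checked against 12 markers of an osteosarcoma line, of which 10 passed the filter. Their summed level was 5006 to 5342 CPM in NC and 5302 to 6084 in BSG, mostly from VIM, CD44 and SPARC, and THY1 had no counts in any of the 6 libraries. CPM here are counts scaled to a common library total and by TMM factors. The markers of immune cells summed to 134 to 153 CPM in NC and 131 to 140 in BSG, nearly all from CD68, and those of endothelial cells to 249 to 251 and 226 to 242, from TIE1 and ERG. Epithelial markers summed to 1232 to 1369 and 1391 to 1718 CPM, from KRT18 and KRT8, with CDH1 and KRT5 near 0. Their part in the results below was not tested.

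By edgeR's quasi-likelihood test at an adjusted p under 0.05, 847 genes were higher in BSG than in NC (5.5% of those tested) and 959 were lower (6.22%). Counts of list members below stand beside these shares of all tested genes, but members and lists were chosen with earlier results of these data known. At least 2-fold changes were found in 284 higher genes (1.84%) and 234 lower genes (1.52%). The 3 libraries of one group lay wholly above the 3 of the other for 2791 genes higher in BSG (18.1%) and 3170 lower (20.6%). The largest rises exceeded the largest falls: where the mean level was 5 CPM or more, the top log2 fold change was 7.08 and the bottom one -2.90. Without BSG 1, 526 genes were higher and 516 lower. Of the called genes 46.9% were higher, a share that fell to 29.9% (574 higher, 1346 lower) when libraries were scaled by their totals alone. In each of 21 alternative analyses 238 of the higher genes and 255 of the lower genes were called again. Genes that an alternative did not test count here as not called, and a filter of 5 CPM in 3 libraries tested only 11139 genes. Where leaving out a single library of the 12 ended a gene's call, those libraries are named beside it with the highest adjusted p they gave.

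**Figure D1:**
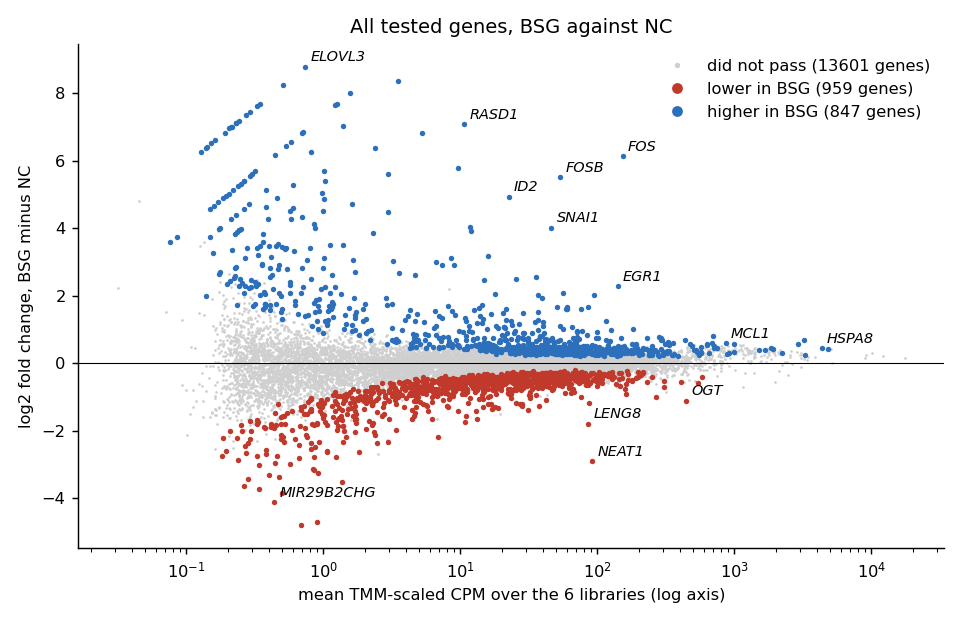
Each point is 1 of the 15407 tested genes, with its mean TMM-scaled CPM over the 6 NC and BSG libraries on a log axis and its log2 fold change of BSG against NC on the vertical axis; blue points are the 847 genes higher in BSG, red points the 959 lower, grey points did not pass the test. Rises reach farther from 0 than falls, with FOS, FOSB, RASD1, ID2 and SNAI1 far above 0. NEAT1 and LENG8 are among the largest falls of genes with a mean of 5 CPM or more.

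Of the AP-1 factors and the EGR factors, several rose by large amounts. AP-1 is a pair of FOS and JUN type proteins that binds DNA soon after cells are stimulated. Of 11 AP-1 genes tested 5 rose and 1 fell, with a median log2 fold change of 0.36 (all tested genes: -0.02). FOS, the founding member, had 4.96, 4.28 and 3.73 CPM in NC and 286, 322 and 292 CPM in BSG, a log2 fold change of 6.12 (SE 0.183, edgeR adjusted p = 2.24e-10). FOSB, which can replace FOS in the pair, went from 2.24, 2.78 and 1.87 CPM to 92.9, 116 and 104, by 5.50 in log2 units (SE 0.286, edgeR adjusted p = 2.94e-08). In both genes every BSG library lay far above every NC library. JUNB, a partner that often tempers JUN, rose from 26.7 to 32.8 CPM in NC to 79.6 to 96.2 in BSG, by 1.61. ATF3, a partner induced by many stresses, rose by 1.40 and JUND by 0.70. JUN itself gave 400.2 to 407 CPM in NC and 400.0 to 429 in BSG, ranges that overlap, with a log2 fold change of 0.05 (SE 0.0761, edgeR adjusted p = 0.673), and FOSL1 gave 0.17 (adjusted p = 0.206). FOSL2 fell by 0.49, a call lost without any 1 NC library, BSG 1, BSG 3, M-BSG 3 or M-BSG-Hot 2 (adjusted p up to 0.129). Per length, FOS stood at 140 FPKM (the deposited value scaled by gene length and library total) in BSG from 2.13 in NC, beside 126 for JUN, so that the FOS level passed from far below the JUN level to near it.

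Of 6 EGR and NAB genes 3 rose and 1 fell (median log2 fold change 0.68). EGR1, a zinc finger factor switched on by growth factors and stress, had 48.5, 48.1 and 47.3 CPM in NC and 204, 252 and 243 in BSG, by 2.28 in log2 units (SE 0.206, edgeR adjusted p = 7.38e-06). EGR2 went from 1.73, 1.58 and 1.10 CPM to 18.2, 26.4 and 22.2, a log2 fold change of 3.92, and EGR3 rose by 1.34. BSG 1 held the lowest value of its group for all of EGR1, EGR2 and EGR3, and still lay above every NC library. NAB1, a corepressor that binds EGR proteins, fell by 0.42, a call lost without any 1 NC library or BSG 1 (adjusted p up to 0.108).

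The 250 bases upstream of the RefSeq start of EGR1 (GRCh38.p14, chr5:138465229-138465478, plus strand) are printed because EGR1 rose in all BSG libraries and its window holds a pair of serum response elements, sites of the serum response factor known as CArG boxes, here in capitals. They start 105 and 83 bases before the gene start.
EGR1: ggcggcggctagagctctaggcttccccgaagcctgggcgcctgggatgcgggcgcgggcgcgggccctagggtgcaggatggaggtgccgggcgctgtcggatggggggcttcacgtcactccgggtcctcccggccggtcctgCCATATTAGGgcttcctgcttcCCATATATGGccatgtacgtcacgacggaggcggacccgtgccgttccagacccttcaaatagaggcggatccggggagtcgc
CArG boxes, searched on both strands, were present in 1.54% of 651 windows of genes called higher, 1.35% of 741 windows of genes called lower and 1.00% of the 12203 windows available for tested genes. The cAMP response element TGACGTCA was found in 3.38% of windows of higher genes, 2.83% of lower genes and 2.77% of all, and the AP-1 element TGANTCA in 5.22%, 4.45% and 4.29%. The heat shock element was found in 0.307%, 0.540% and 0.295%. The 250-base windows of FOS, FOSB, EGR2, JUNB, HSPA1A and DNAJB1, which also rose, held no match to any of these motifs. That of LENG8, which fell, held a cAMP response element. These are descriptions of letters and not of bound sites.

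The IER, CSRNP and MAF genes, short-lived nuclear regulators and small transcription factors, had 8 of 12 higher and 3 lower (median 0.71). CSRNP1 had 29.2 to 30.9 CPM in NC and 90.0 to 91.4 in BSG, a rise of 1.59 (SE 0.118, edgeR adjusted p = 1.04e-06) with BSG libraries within a narrow band. IER5L, IER3, IER5 and IER2 rose by 1.38, 1.00, 0.94 and 0.75. CSRNP2 rose by 0.44, and MAFF by 0.66 (lost without NC 2, adjusted p = 0.0578). The 3 lower calls of the list dropped to 0 or 1 without any 1 of the 6 libraries.

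**Figure D2:**
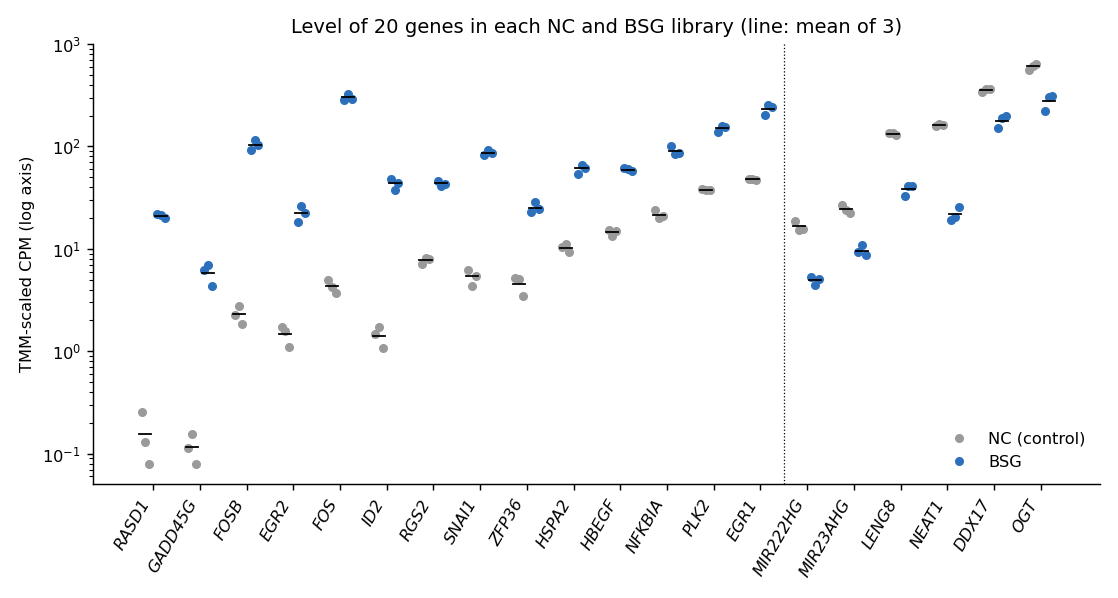
Points give the TMM-scaled CPM (log axis) of 20 genes in each of the 3 NC (grey) and 3 BSG (blue) libraries, with a line at each mean; genes left of the dotted line rose and genes right of it fell. All are called genes chosen with their values known, so that their groups lie apart is no result (over all tested genes 18.1% lie apart with BSG higher and 20.6% with BSG lower), and FOS stands at about 4 CPM in NC and about 300 in BSG.

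Receptors and signals of the same early class rose too. The NR4A genes encode orphan nuclear receptors, and with other targets of cyclic AMP signalling 4 of 14 rose and 1 fell (median 0.01). NR4A2 had 1.34 to 1.59 CPM in NC and 8.98, 13.3 and 13 in BSG, a log2 fold change of 3.01, NR4A3 rose by 1.93, and NR4A1 rose by 0.48 from 20.9 to 23.4 CPM to 28.7 to 33.4. SIK1, a kinase that restrains this pathway, rose by 2.07. CRTC1, a coactivator of the pathway, fell by 0.63 (lost when NC 3 was left out, adjusted p then 0.0624). HBEGF, a ligand that activates the EGF receptor, went from 15.2, 13.4 and 15.0 CPM to 61.1, 59.6 and 57.7, by 2.03 (SE 0.123, edgeR adjusted p = 1.45e-07), the 1 of 4 tested EGF receptor ligands that passed.

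Several feedback inhibitors of signalling rose. RAS-like GTPases and RGS proteins, the latter of which switch off G proteins, had 9 of 15 members higher (median 1.07). RASD1, a RAS-like protein induced by glucocorticoids, had the top log2 fold change among genes with a mean of 5 CPM or more over the 6 libraries. It had 0.255, 0.130 and 0.0789 CPM in NC and 21.7, 21.6 and 19.8 in BSG, a log2 fold change of 7.08 (SE 0.295, edgeR adjusted p = 3.90e-09). RASD1 was near 0 in NC and passed the low-count filter through the other libraries, so the size of this rise rests on few NC counts. RGS2 rose from 7.14 to 8.07 CPM to 41.5 to 46.4, by 2.49 (SE 0.112, edgeR adjusted p = 7.96e-09), and RGS16 by 2.04. RRAD and RND1, low in NC, rose by 2.82 and 2.67, and GEM, RND3 and RHOB by 1.17, 1.07 and 1.02. SGK1, a kinase that regulates ion channels and transporters and responds to steroids and osmotic stress, had 34.4, 39.5 and 38.4 CPM in NC and 109, 115 and 116 in BSG (log2 fold change 1.60). Of the 11 steroid-induced genes, a list that shares RASD1 with this one, 4 rose, and 2 did so without NC 3. FKBP5, a defining glucocorticoid target, gave 57.1 to 57.8 CPM in NC and 48.4 to 57.3 in BSG (log2 fold change -0.09, edgeR adjusted p = 0.432).

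Of 22 DUSP phosphatases and other brakes on ERK kinases 5 rose and 1 fell (median -0.03), and 3 rose without NC 2 or NC 3, the lowest count when 1 library was left out. DUSP10, which acts on stress kinases, rose by 1.55 from 3.23 to 3.52 CPM to 9.17 to 10.1, DUSP1 by 0.72 and SPRY2 by 0.39. DUSP6, the ERK-selective phosphatase, had 247 to 254 CPM in NC and 233 to 246 in BSG, with a log2 fold change of -0.08 (edgeR adjusted p = 0.484).

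ID proteins bind and block factors that drive differentiation, and are classic targets of BMP signalling. Of 13 ID and BMP feedback genes 4 rose (median 0.15). ID2 had 1.47, 1.71 and 1.08 CPM in NC and 48.6, 37.8 and 44.2 in BSG, a log2 fold change of 4.93 (SE 0.186, edgeR adjusted p = 1.93e-09), and ID4 rose by 3.04. BAMBI, a decoy receptor, rose by 0.70 and SMAD7, an inhibitor of the pathway, by 0.46. ID1 and ID3, the other members of the family, had overlapping or adjoining ranges: ID1 gave 74.9 to 85.7 CPM in NC and 79.8 to 107 in BSG (log2 fold change 0.26, edgeR adjusted p = 0.161), and ID3 gave a log2 fold change of 0.18 (adjusted p = 0.288). Among the SNAI, TWIST and ZEB factors, which repress epithelial genes, 2 of 7 rose: SNAI1 went from 6.27, 4.39 and 5.49 CPM to 82.1, 91.3 and 85.8, by 4.01 in log2 terms (SE 0.152, edgeR adjusted p = 1.93e-09), and TWIST1 by 0.75. SNAI2 stood at 13.2 to 14.3 and 14.1 to 15.0 CPM (log2 fold change 0.08, edgeR adjusted p = 0.615).

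Growth and RNA-turnover regulators gave smaller groups. Of 11 genes of the MYC network 2 rose and 1 fell: MYC by 0.89, from 27.5 to 30.7 CPM to 49.7 to 56.3, and MXD1 by 0.40 (lost without NC 1, NC 2, BSG 2 or BSG 3, adjusted p up to 0.0916), while the MYC antagonist MNT fell by 0.62. HEXIM1, which holds the elongation kinase P-TEFb inactive, had 43.4, 40.1 and 40.0 CPM in NC and 135, 124 and 130 in BSG (log2 fold change 1.66), the 1 of 10 P-TEFb genes that passed (2 without BSG 2). Of 14 KLF factors 4 rose, among them KLF5 by 1.27 and KLF4 by 1.23, and 2 to 4 did so with 1 library left out (fewer without NC 1, NC 3 or BSG 3). Of 12 genes of mRNA decay 5 rose, and as few as 3 when NC 1, NC 2, NC 3 or BSG 1 was left out. ZFP36, a zinc finger protein that destroys RNAs of inflammatory and immediate-early genes, went from 5.16, 5.04 and 3.47 CPM to 23.1, 28.4 and 24.3, by 2.47. ZC3H12A, an RNase with related targets, rose by 1.58 and TOB1 by 1.07.

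NF-kB is held in the cytoplasm by inhibitors that its own activity replaces. Of 22 genes of its subunits and inhibitors 2 rose and 1 fell (median 0.07), and 3 fell without BSG 2. NFKBIA, the main inhibitor, had 23.7, 19.9 and 21 CPM in NC and 102, 85.2 and 86.1 in BSG, by 2.08 (SE 0.114, edgeR adjusted p = 4.17e-08). NFKBIZ, a nuclear cofactor, rose by 1.64, and NFKBID, a relative of it, fell by 1.65 from 2.10 to 3.04 CPM to 0.627 to 1.16. The subunit gene NFKB1 gave 49.8 to 52.0 CPM in NC and 55.2 to 59.8 in BSG (log2 fold change 0.17, edgeR adjusted p = 0.202), and the feedback gene TNFAIP3 gave 0.31 (adjusted p = 0.180).

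Of 21 cytokine, chemokine and prostaglandin genes 7 rose (median 0.19), 5 of them without BSG 1. PTGS2, the inducible enzyme of prostaglandin synthesis, went from 4.00, 3.22 and 4.15 CPM to 9.85, 14 and 13.2, by 1.70. CXCL8, a neutrophil attractant, rose by 1.09, from 3.57 to 4.71 CPM to 8.02 to 9.73. The related CXCL1, CXCL2 and CXCL3 stayed under 2 CPM in all libraries and rose by 1.62, 1.88 and 1.10. The call of CXCL3 was lost without any 1 NC or BSG library, M-BSG 2, M-BSG 3, M-BSG-Hot 1 or M-BSG-Hot 2 (adjusted p up to 0.139). These genes are close copies, and their counts may share reads. TNF had no count in the NC libraries and 8, 22 and 18 counts in the BSG libraries, at least 15.3-fold higher against a limit of 3 counts over the NC group. It entered the test through its counts in BSG or the magnetic groups, so these values are a description. TNF is nevertheless counted among the 7 rises of this list, and among the 5 without BSG 1. IL6 gave 0.0519 to 0.447 CPM in NC and 0.497 to 0.727 in BSG, with an edgeR adjusted p of 0.112 for a log2 fold change of 1.32.

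The upstream windows of NFKBIA (GRCh38.p14, chr14:35404750-35404999, minus strand) and CXCL1 (chr4:73869143-73869392, plus strand) are shown because both genes rose and both windows hold the kappa-B motif, to which NF-kB binds, in capitals. It starts 81 bases before the NFKBIA start, and 2 overlapping matches start 79 and 78 bases before the CXCL1 start.
NFKBIA: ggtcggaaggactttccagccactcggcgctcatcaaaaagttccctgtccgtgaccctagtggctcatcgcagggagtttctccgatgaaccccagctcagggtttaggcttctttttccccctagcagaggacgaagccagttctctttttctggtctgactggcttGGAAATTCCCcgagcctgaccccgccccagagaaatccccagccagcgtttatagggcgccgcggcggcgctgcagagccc
CXCL1: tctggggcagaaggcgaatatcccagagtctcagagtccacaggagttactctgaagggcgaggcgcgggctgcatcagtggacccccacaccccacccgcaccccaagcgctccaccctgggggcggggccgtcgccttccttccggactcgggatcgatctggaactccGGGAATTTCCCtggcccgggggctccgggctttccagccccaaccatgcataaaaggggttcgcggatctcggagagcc
The motif was found in 6.45% of windows of higher genes, 6.88% of lower genes and 5.94% of all tested genes with a window, on either strand, so its share among higher genes was near that among all genes.

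Chaperones refold damaged proteins, and several of the cytosol rose. Of 13 HSP70 and HSP110 genes 7 rose and 1 fell (median 0.30). HSPA2, an HSP70 known best from testis, had 10.3, 11.2 and 9.38 CPM in NC and 54.3, 66.5 and 62.2 in BSG, a log2 fold change of 2.57 (SE 0.120, edgeR adjusted p = 1.10e-08). The heat-inducible HSPA1A and HSPA1B rose by 1.61 and 1.49. They are near-identical copies whose reads the counting could split, so their separate values are uncertain. HSPA8, the constitutive HSP70 and one of the most abundant mRNAs, went from 3584 to 3747 CPM to 4790 to 5322, by 0.45, and HSPA14 rose by 0.74. HSPA12A fell by 0.41, a call lost without any 1 NC or M-BSG-Hot library, BSG 1, BSG 3 or M-BSG 3 (adjusted p up to 0.177). The strictly heat-induced HSPA6 stayed under 0.5 CPM in all 6 libraries, with a log2 fold change of 1.47 (edgeR adjusted p = 0.0973). Of 21 DNAJ co-chaperones, which hand clients to HSP70, 6 rose: DNAJB1 had 80.6 to 90.5 CPM in NC and 162 to 174 in BSG (log2 fold change 0.97), and DNAJB9, DNAJA1 and DNAJB6 rose by 0.69, 0.59 and 0.39. Of 18 HSP90, HSP60 and small HSP genes 6 rose, a count that lay between 1 and 8 with 1 library left out (1 without BSG 1) and moved with NC 1, NC 2, NC 3 and BSG 3 too. HSP90AB1 rose by 0.42 and was called in all alternatives. HSP90AA1 rose by 0.23, a call lost without any 1 NC library, BSG 1, BSG 3 or M-BSG 3 (adjusted p up to 0.131). HSF1, the factor that drives heat shock genes, gave 0.05 (adjusted p = 0.715), and the small chaperone HSPB1 gave 0.25 (adjusted p = 0.258).

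Of 26 genes of the endoplasmic reticulum stress response 5 rose and 2 fell (median 0.18), with 3 to 9 higher when 1 library was left out, the counts moving with NC 1, NC 2, NC 3, BSG 1 and BSG 2. HSPA5, the main chaperone there, had 579 to 588 CPM in NC and 814 to 853 in BSG (log2 fold change 0.51), and HERPUD1, which aids disposal of misfolded proteins, rose by 0.43. DERL3 fell by 1.40 from 1.68 to 2.27 CPM to 0.588 to 0.967. XBP1 gave 140 to 148 CPM in NC and 166 to 180 in BSG, a log2 fold change of 0.25 (edgeR adjusted p = 0.190). The integrated stress response holds back protein synthesis, and of its 25 genes 4 rose and 1 fell (median 0.00): among the rises were ATF3, PPP1R15A by 0.75 and ATF4 by 0.58, from 763 to 837 CPM to 1105 to 1310. ASNS, the asparagine synthetase that ATF4 can induce, fell by 0.78, from 9.11 to 9.90 CPM to 3.81 to 6.72, a call lost without any 1 NC library or BSG 1 (adjusted p up to 0.0620). DDIT3, a death-promoting factor of this response, gave -0.22 (adjusted p = 0.491).

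Of 25 genes of growth arrest and the DNA damage response 7 rose and 2 fell (1 fell without NC 3), with a median of 0.08. PLK2, a kinase induced by stress and an early response gene, had 38.2, 37.4 and 37.2 CPM in NC and 139, 160 and 156 in BSG, by 2.01 (SE 0.0797, edgeR adjusted p = 2.47e-09). The GADD45 genes, which link stress to kinases and repair, rose in all members: GADD45G went from 0.113, 0.156 and 0.0789 CPM to 6.21, 6.90 and 4.34, by 5.61, GADD45B by 0.75 and GADD45A by 0.74. GADD45G was near 0 in NC and passed the low-count filter through the other libraries, so the size of its rise rests on few NC counts. CDKN1A, the inhibitor of cell cycle kinases, rose by 0.66 from 88.6 to 101 CPM to 141 to 162, and PPM1D by 0.62. MDM4, a negative regulator of this response, fell by 0.60. The pro-death genes BAX and BBC3 gave log2 fold changes of 0.27 (edgeR adjusted p = 0.130) and -0.39 (adjusted p = 0.247).

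Of 18 BCL2 family genes 4 rose and 1 fell. MCL1, a short-lived survival protein, had 665, 699 and 691 CPM in NC and 964, 1053 and 1088 in BSG (log2 fold change 0.60, SE 0.0781, edgeR adjusted p = 0.000222). BCL2L11 and PMAIP1, which promote death and bind MCL1, rose by 0.70 and 0.36, and the survival gene BCL2L2 fell by 0.62. Of 21 death receptor, caspase and inhibitor genes 3 rose and 1 fell, with 1 higher without NC 1, NC 2, NC 3 or BSG 1 at the least. CFLAR, which blocks caspase activation at receptors, fell by 0.49.

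Cell cycle lists held few called genes in DNA replication and more in mitosis and G1, beside shares of 5.5% higher and 6.22% lower over all genes. Of 39 DNA replication genes 1 rose, ORC6 by 0.35 (lost without NC 2 or NC 3, adjusted p up to 0.0651), and the median was 0.02. That number was 3 without BSG 2. Of 36 mitosis genes 4 rose, among them the kinase AURKA by 0.38 (lost without NC 3, adjusted p = 0.0526), and 0 to 6 did so with 1 library left out, the count moving with NC 1, NC 2, NC 3 and BSG 1. MKI67, a proliferation marker with a long mRNA, had 470, 528 and 540 CPM in NC and 242, 399 and 400 in BSG, values that do not overlap, with an edgeR adjusted p of 0.0513 for a log2 fold change of -0.56. PCNA, a short proliferation mRNA, gave 0.31 (adjusted p = 0.0729). Of 27 G1 genes 4 rose and 2 fell (1 fell without NC 2, NC 3 or BSG 1, and 3 without BSG 3), led by the cyclins L, which act in splicing: CCNL2 fell by 0.92 from 206 to 214 CPM to 108 to 114, and CCNL1 rose by 0.69. CCNE1, the cyclin of S-phase entry, rose by 0.53. Of 39 DNA repair genes 4 fell, and 2 without NC 1, NC 2, NC 3, BSG 1 or BSG 3: XRCC2, of homologous recombination, by 1.04 from 28.8 to 33.8 CPM to 12.4 to 18, FANCD2, of crosslink repair, by 0.37, and 2 others by less.

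NEAT1, a nuclear RNA, and LENG8 were among the largest falls of well-counted genes. NEAT1 is the long non-coding RNA on which paraspeckles, bodies of the nucleus, are built. It had 159, 164 and 162 CPM in NC and 19.1, 20.3 and 25.7 in BSG, a log2 fold change of -2.90 (SE 0.130, edgeR adjusted p = 7.96e-09), and every BSG library lay far below every NC library. Of 12 paraspeckle and nuclear RNA genes NEAT1 was the 1 that fell, and SFPQ, a paraspeckle protein, the 1 that rose, by 0.50. MALAT1, the neighbour of NEAT1 and also retained in the nucleus, gave 118 to 135 CPM in NC and 111 to 133 in BSG, which overlap, for a log2 fold change of -0.07 (edgeR adjusted p = 0.687).

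Of 30 SR proteins, splicing kinases and related genes 8 rose and 5 fell (median -0.01). LENG8, a nuclear factor in mRNA retention, had 135, 134 and 129 CPM in NC and 32.8, 40.9 and 41.1 in BSG (log2 fold change -1.79, SE 0.108, edgeR adjusted p = 1.41e-07). OGT, the enzyme that adds sugar tags to nuclear proteins and whose RNA is regulated by intron retention, went from 557, 615 and 638 CPM to 221, 306 and 310, by -1.11. The RNA helicase DDX17 fell by 0.99 and its relative DDX5 rose by 0.45, from 591 to 604 CPM to 795 to 835. The splicing kinase CLK4 fell by 0.83, and SRRM1 by 0.37 (lost without NC 2, NC 3 or BSG 1, adjusted p up to 0.0554). RSRP1 rose by 1.28, the SR proteins SRSF3 and SRSF6 by 0.69 and 0.68 and the related TRA2A by 0.64. The 8 rises were 5 without NC 2.

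Many host transcripts of microRNAs fell, while more of those of small nucleolar RNAs rose than fell. Of 20 microRNA host genes 9 fell and 1 rose, with a median log2 fold change of -0.53, and without BSG 1 the same numbers of 9 and 1 were counted. The mature microRNAs that 3 of these hosts carry are printed with the seed, bases 2 to 8 that pair with targets, in capitals (RefSeq, GRCh38.p14); miR-221-3p and miR-222-3p share 1 seed. The libraries counted the host RNA and not the mature microRNA.
miR-221-3p: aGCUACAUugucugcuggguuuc
miR-222-3p: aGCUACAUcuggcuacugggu
miR-23a-3p: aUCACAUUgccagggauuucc
miR-27a-3p: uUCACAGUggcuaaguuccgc
miR-24-3p: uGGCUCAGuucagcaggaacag
miR-22-3p: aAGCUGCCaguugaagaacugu
MIR222HG, host of miR-221 and miR-222 (chrX:45746180-45746202 and chrX:45747036-45747056 for the printed strands), had 18.8, 15.4 and 15.8 CPM in NC and 5.37, 4.47 and 5.07 in BSG, by -1.75 (SE 0.166, edgeR adjusted p = 1.22e-05). MIR23AHG, host of miR-23a, miR-27a and miR-24 on chromosome 19, went from 26.9, 23.8 and 22.6 CPM to 9.26, 10.9 and 8.71, by -1.34. MIR17HG, host of the miR-17 cluster, fell by 1.65 from 9.15 to 9.61 CPM to 2.77 to 3.42. MIR22HG, host of miR-22 (chr17:1713914-1713935), was the exception, with 25.5, 24.0 and 23.7 CPM in NC and 74.9, 77.7 and 78.1 in BSG, by 1.66 (SE 0.122, edgeR adjusted p = 1.04e-06). Low hosts also fell: MIR29B2CHG by 4.11, MIRLET7BHG by 1.85, MIR3142HG by 1.68, MIR210HG by 1.61 and MIR34AHG by 1.55, all under 3 CPM in NC. Of these the calls of MIRLET7BHG and MIR34AHG were lost without NC 1, NC 2 or BSG 3 and that of MIR210HG without NC 2, NC 3 or BSG 3 (adjusted p up to 0.0830). MIR100HG fell by 0.48. Whether counting used strand is not given in the sources used here, so values of host and antisense genes may hold reads of overlapping genes.

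Small nucleolar RNA host genes, whose spliced RNAs decay fast when translation proceeds, had 11 of 28 higher and 1 lower (median 0.37), and 9 higher without BSG 1. SNHG12 had 19.3 to 22.1 CPM in NC and 45.6 to 53.9 in BSG (log2 fold change 1.21), SNHG25 rose by 1.21 too, and DANCR, SNHG5, EPB41L4A-AS1, TAF1D and SNHG1 rose by 0.93, 0.88, 0.81, 0.76 and 0.74. SNHG20 fell by 0.60, a call lost without NC 1, NC 2, any 1 BSG library, M-BSG 3 or M-BSG-Hot 2 (adjusted p up to 0.182). GAS5 gave 290 to 308 CPM in NC and 311 to 395 in BSG, a log2 fold change of 0.26 (edgeR adjusted p = 0.220).

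Among genes with ZNF symbols and antisense genes more fell than rose, beside shares of 5.5% higher and 6.22% lower over all genes. Lower were 13.7% of ZNF, 10.7% of antisense, 11.9% of long non-coding RNA, 9.52% of LINC and 5.43% of protein-coding genes. Higher were 3.07%, 2.31%, 4.49%, 5.56% and 5.60% in that order. Of 423 genes with ZNF symbols, mostly repressors of repeats and promoters, 58 fell and 13 rose (median -0.16), and 27 and 11 without BSG 1. ZNF589 went from 41.8 to 46.1 CPM to 13.7 to 20.6, by -1.38, and ZNF780A, ZNF891 and ZNF789 fell by 1.41, 1.29 and 1.27. Antisense genes had 51 of 477 lower and 11 higher (35 and 9 without BSG 1), with SLC9A3-AS1 at 10.8 to 11.8 CPM in NC and 2.13 to 2.61 in BSG (log2 fold change -2.19). Of 1691 long non-coding RNA genes 202 fell and 76 rose (127 and 58 without BSG 1, 234 and 72 when scaled by library totals). Of 13433 protein-coding genes 729 were lower and 752 higher, a balance that moved to 371 and 455 without BSG 1 and to 1071 and 485 when scaled by library totals. LINC genes had 24 lower and 14 higher of 252, and 13 of each without BSG 1, with LINC00641 rising by 1.5 and LINC00342 falling by 1.27.

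Genes that handle ions, acid and metals were called at shares near those over all genes (5.5% higher, 6.22% lower). Of 29 genes of pH, bicarbonate, borate and water transport 2 rose and 2 fell (median -0.16). AQP3, a channel for water and glycerol, had 0.815 to 1.84 CPM in NC and 4.20 to 5.25 in BSG (log2 fold change 1.94), and CA2, a carbonic anhydrase, rose by 0.42. SLC4A11, a membrane transporter of the bicarbonate family that has been linked to borate, fell by 0.40 from 33.7 to 35.7 CPM to 24.3 to 29.4, and SLC9A7, a sodium and proton exchanger of organelles, by 0.38. Both of these falls lost their call without any 1 NC library, BSG 1 or BSG 3, and that of SLC9A7 also without M-BSG 3 or M-BSG-Hot 2 (adjusted p up to 0.146). Of 17 metallothionein and zinc genes 1 rose, the zinc exporter SLC30A1 by 0.48 (lost without any 1 NC library, BSG 2, BSG 3, M-BSG-Hot 1 or M-BSG-Hot 2, adjusted p up to 0.130). The metallothionein MT2A, which binds surplus zinc, had 405, 340 and 334 CPM in NC and 555, 423 and 396 in BSG, ranges that overlap, for a log2 fold change of 0.35 (edgeR adjusted p = 0.144).

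Of 19 iron genes 1 fell, SLC25A37, the iron importer of mitochondria, from 178, 183 and 178 CPM to 102, 121 and 112, by -0.69 (SE 0.0763, edgeR adjusted p = 5.52e-05), and the ferritin gene FTH1 gave 0.21 (adjusted p = 0.267). Of 24 genes of the NRF2 response against oxidants 4 rose and 1 fell, and 0 to 5 rose when 1 library was left out, the count moving with NC 1, NC 2, NC 3, BSG 1 and BSG 3. GCLC, which starts glutathione synthesis, rose by 0.34 (lost without NC 2, NC 3 or BSG 3, adjusted p up to 0.0705), and SRXN1, which repairs oxidised peroxiredoxins, by 0.28 (lost without any 1 NC library, adjusted p up to 0.0786). HMOX1 had 8.13 to 9.39 CPM in NC and 11.4 to 12.0 in BSG, which do not overlap, with a log2 fold change of 0.40 (edgeR adjusted p = 0.0920).

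**Figure D3:**
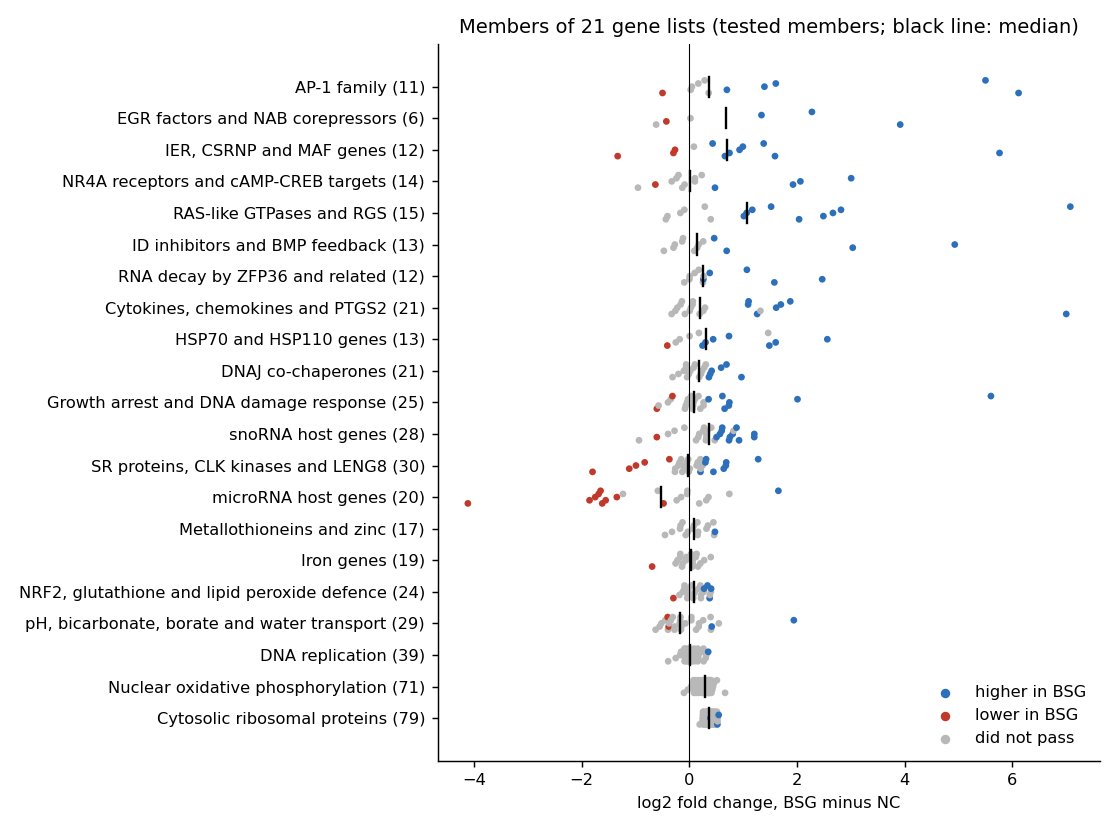
Each point is a tested member of 1 of 21 gene lists (number of tested members in brackets), placed by its log2 fold change of BSG against NC; blue points rose, red points fell, grey points did not pass, and the black line is the list's median. AP-1, EGR, IER and RAS-like lists reach far to the right, microRNA host genes lie to the left with a median of -0.53, and ribosomal protein genes form a narrow band with a median of 0.37 in which 3 of 79 passed.

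In large housekeeping groups most members had small positive log2 fold changes, beside the higher ribosomal share of BSG 1. Over all tested genes 18.1% had BSG libraries above all NC libraries. Of 79 cytosolic ribosomal protein genes 49 had BSG libraries above all NC libraries and 3 passed the test (median 0.37, and 0.21 without BSG 1). That number of 3 was 0 without NC 1, NC 2, NC 3 or BSG 1, 1 without BSG 3, 40 without BSG 2 and 36 without M-BSG 1. It was 34 by DESeq2, 35 with no filter, 11 with the replicate block and 25 with the length trend removed. Of 71 nuclear genes of oxidative phosphorylation 28 had groups apart with BSG above, and 0 passed by edgeR, with 39 higher at an unadjusted p under 0.05, 16 higher by DESeq2 and 27 without BSG 2. Of 31 proteasome genes 5 rose (median 0.28), 0 without NC 2 or NC 3, 1 without NC 1, BSG 1 or BSG 3, and 17 without BSG 2. Of the 13 protein genes of the mitochondrial genome 5 rose, 4 without BSG 1 and 3 without NC 2 or NC 3: ND1, a subunit of complex I, went from 2641, 2322 and 2356 CPM to 4290, 3601 and 3998, by 0.70 (SE 0.104, edgeR adjusted p = 0.000656), ND6 and ND2 by 0.63 and 0.57, and CYTB by 0.41 (lost without NC 2 or NC 3, adjusted p up to 0.0606).

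Metabolic and matrix groups held a few called members, beside shares of 5.5% higher and 6.22% lower over all genes. Hypoxia and glycolysis genes (6.25% higher, 9.38% lower), YAP targets (6.25% each way) and matrix proteases (7.14% higher, 3.57% lower) lay near those shares. Of 27 cholesterol synthesis genes 3 rose (5 without BSG 2), among them HMGCS1, an early enzyme of the route, by 0.84 from 56.5 to 62.2 CPM to 102 to 111, and IDI1, a later one, by 0.67. Of 32 hypoxia and glycolysis genes 2 rose and 3 fell. ADM, a peptide hormone gene, had 29.7, 30.5 and 26.3 CPM in NC and 91.4, 93.5 and 89.4 in BSG (log2 fold change 1.66), and the glucose transporter SLC2A3 rose by 0.71, while PDK1 and PFKFB4, kinases that steer glycolysis, fell by 0.52 and 0.43. VEGFA, a defining hypoxia target, gave -0.22 (edgeR adjusted p = 0.109). Of 35 autophagy and lysosome genes 3 rose (7 without BSG 2), among them MAP1LC3B, of the autophagosome membrane, by 0.51 and UVRAG by 0.49. Of 28 matrix protease genes 2 rose and 1 fell (1 rose without NC 2, NC 3, BSG 1 or BSG 3, and 3 rose and 2 fell without BSG 2), with ADAMTS1 going from 5.49 to 7.43 CPM to 17.9 to 25.1, by 1.72. Of 19 collagen genes 4 fell and 1 rose. COL7A1 fell by 0.59 (lost without NC 2, adjusted p = 0.0515) and COL6A3 by 0.54 (lost without NC 2, NC 3 or BSG 1, adjusted p up to 0.108), and 0 to 4 collagen genes fell when 1 library was left out, 1 of them without BSG 1. Of 18 osteoblast lineage genes 3 rose (5 without BSG 2), DLX3 by 1.90 at under 2 CPM, TWIST1 and ATF4, and RUNX2, the master factor of osteoblasts, gave 14.7 to 16.1 CPM in NC and 11.7 to 16.9 in BSG (log2 fold change -0.08, edgeR adjusted p = 0.695). H2BC21, a histone gene also expressed outside S phase, rose by 2.90 from 2.00 to 2.34 CPM to 13 to 19.6, among 5 of 21 histone genes that rose (3 without BSG 1, 2 without NC 2 or NC 3). The 5 include H3C2, with 1 count over the NC libraries and 3, 9 and 4 counts in BSG. It entered the test through other libraries, so its values are a description. Its call was lost without any 1 NC or BSG library or M-BSG 3 (adjusted p up to 0.142). CCN2, a matrix protein and YAP target, rose by 0.39, and the receptor kinase AXL fell by 0.42, the 2 of 16 YAP targets that passed (2 rose without BSG 1). Of 18 clock genes 2 fell, PER3 by 0.57 and CRY2 by 0.59 (lost without any 1 NC library, adjusted p up to 0.0705).

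Gene length went with the direction of change. Tested genes were split into 5 bins of equal number by the length used for the deposited FPKM. In the bin of shortest genes 8.73% were higher and 2.60% lower, in the bin of longest genes 1.69% were higher and 10.0% lower, and the median log2 fold change went from 0.19 through 0.07, -0.01 and -0.09 to -0.21. Without BSG 1 the medians of the end bins were 0.10 and -0.11. The geometric mean length weighted by counts was 3368 to 3542 bases in NC and 2935, 3343 and 3257 in BSG 1 to 3. With the length trend removed 1283 genes were higher and 1082 lower. With it removed, the median of the ribosomal protein genes went from 0.37 to 0.20 and their number called from 3 to 25. With the trend removed RASD1 gave 6.93, and the small changes of CFLAR, PDK1, ND6, CA2 and CCN2 no longer passed (adjusted p 0.0609 to 0.488). The part of RNA quality in this trend was not tested.

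**Figure D4:**
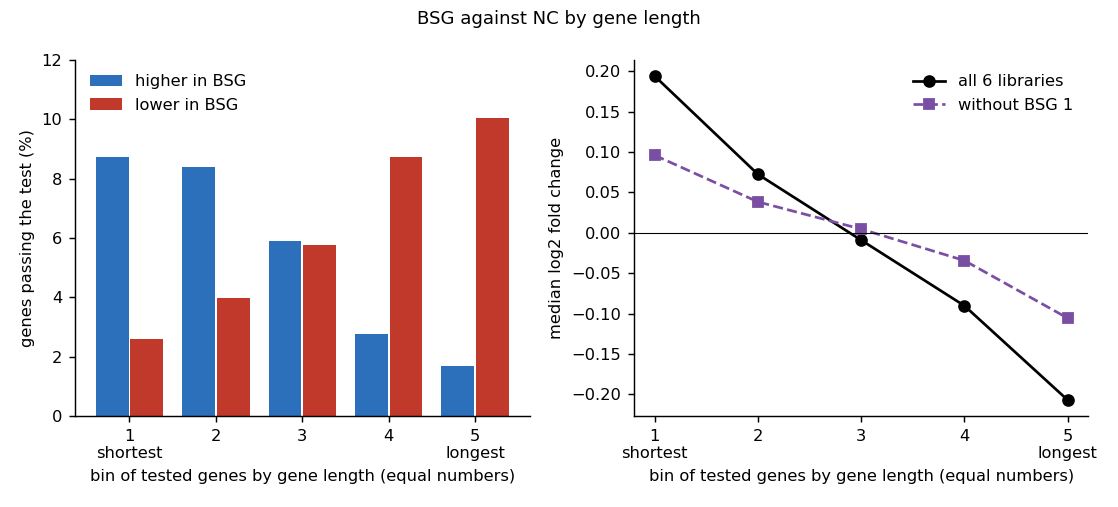
Left, bars give the percentage of tested genes higher (blue) and lower (red) in BSG in each of 5 bins of gene length; right, the median log2 fold change of each bin with all 6 libraries (solid) and without BSG 1 (dashed). The percentage higher falls from 8.73% to 1.69% and the percentage lower rises from 2.60% to 10.0% toward the longest genes, and the medians span a smaller range without BSG 1.

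The BSG libraries were then set directly against the magnetic groups, in contrasts that share the BSG libraries with the comparison to NC. Against M-BSG 20 genes were higher in BSG (0.13% of those tested). By edgeR none was lower at the adjusted threshold (0.0%), with 513 lower at an unadjusted p under 0.05 and 13 lower by DESeq2. All 20 were also among the genes higher in BSG than in NC. RGS2 had 46.4, 41.5 and 42.6 CPM in BSG and 23.7, 20.9 and 19.3 in M-BSG, a difference of 1.03 on the log2 scale (SE 0.105, edgeR adjusted p = 0.00138). ID2 differed by 1.14, from 23.1, 19.6 and 16.7 CPM in M-BSG, RASD1 by 1.44, SNAI1 by 0.92, HSPA1A by 0.81, HEXIM1 by 0.60 and KLF4 by 0.54. H2BC21, with 13 to 19.6 CPM in BSG and 3.9 to 5.72 in M-BSG, differed by 1.63. For each of these genes the M-BSG level lay between NC and BSG. RGS2 and SNAI1 were also lower in M-BSG-Hot than in BSG, with means of 26.6 and 41.1 CPM there. The others named did not pass against M-BSG-Hot (edgeR adjusted p 0.0796 to 0.663). Their M-BSG-Hot means, 39.1 CPM for ID2, 14.8 for RASD1, 23.2 for HSPA1A, 109 for HEXIM1, 47.8 for KLF4 and 13.9 for H2BC21, lay above their M-BSG means. FOS had 243 ± 16.6 CPM in M-BSG (SD, n = 3) and was not among the 20. The count of 20 was 13 without BSG 3 or M-BSG 1, 11 without M-BSG 2 and 3 without M-BSG 3.

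Against M-BSG-Hot 116 genes were higher in BSG (0.753%) and 15 lower (0.0974%). Of the 116, 102 were also higher than NC and 1 was lower, and of the 15, 7 were also lower than NC. FOSB had 92.9, 116 and 104 CPM in BSG and 16.3, 39.4 and 32.7 in M-BSG-Hot, a difference of 1.83 (SE 0.229, edgeR adjusted p = 0.00153), and RASL11A, a RAS-like gene, differed by 2.02. MCL1 differed by 0.41 and DNAJA1 by 0.34. DUSP6 was lower in BSG than in M-BSG-Hot, with 233 to 246 CPM against 288 to 339. The count of 116 was 49 without BSG 2 or M-BSG-Hot 1, 62 without BSG 3 and 69 without M-BSG-Hot 3.

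**Figure D5:**
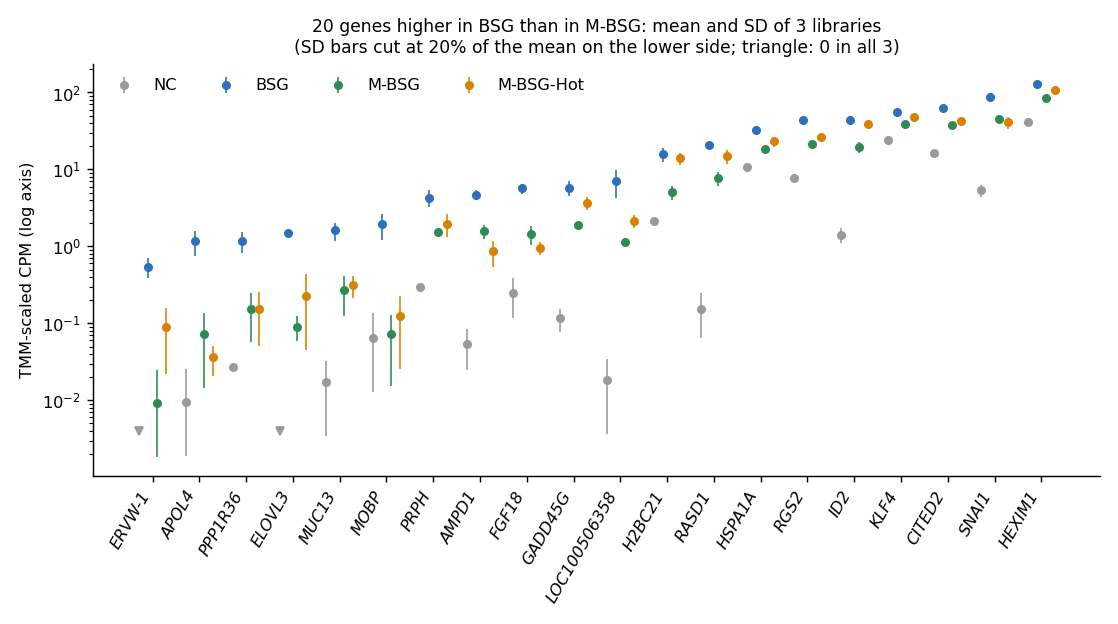
Points give mean TMM-scaled CPM (log axis) with SD over 3 libraries, in NC, BSG, M-BSG and M-BSG-Hot, of the 20 genes higher in BSG than in M-BSG; lower SD bars are cut at 20% of the mean and triangles mark 0 in all 3 libraries. The BSG mean is the highest of the 4 for every gene, and for RGS2, ID2, SNAI1 and HEXIM1 the M-BSG mean lies between NC and BSG. For RGS2, ID2 and HEXIM1 the M-BSG-Hot mean lies nearer BSG than the M-BSG mean does, and for SNAI1 it lies farther.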

How the data were processed

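RNA-seq libraries of 143B cells were built with a SMARTER mRNA-Seq kit from total RNA, per the labels' protocols. The authors deposited whole, unnormalised counts per gene symbol for each library, and FPKM. All FPKM values above 0 equal count over gene length and library total (relative tolerance 1e-06), as the values themselves show. Which aligner, counter and annotation were used, and whether strand was, is not given in the sources used here. Builds named in the submitters' processing notes are GRCm38 and mm10, both mouse, while symbols are human, so the build of the counts is unresolved. Symbols were matched to NCBI RefSeq GRCh38.p14 (22776 directly, 268 by synonym, 1136 not), used for names, gene types and printed sequences.

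Counts were tested with edgeR 4.0.16 (R 4.3.3): filterByExpr with a minimum count of 10, TMM factors (0.951 to 1.05), 1 mean per group over all 12 libraries, quasi-likelihood F tests, and Benjamini-Hochberg adjustment over 15407 genes. The SE is the absolute log2 fold change over the square root of F. In simulated counts for this comparison over 15407 genes, 25 of 50 genes changed 1.5-fold and 41 of 50 changed 2-fold were recovered. At 3-fold 48 of 50 and at 4-fold 49 of 50 were recovered, and 10 unchanged genes were called. The simulation took each gene's spread from the trend over expression level, with no outlying library such as BSG 1 and no length trend. Its numbers describe that simpler setting. Alternatives were DESeq2 1.42.0, scaling by library totals, no filter, a filter of 5 CPM in 3 libraries, only the 2 groups, a replicate block, removal of the gene length trend (lowess, span 0.3) without and with that block, each library left out, and, added after seeing the data, BSG 1 and M-BSG 1 both left out.

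Named genes were the 14 highest and 14 lowest log2 fold changes among called genes of 5 CPM or more on average, with official symbols and groups apart, members of 57 gene lists (up to 6 called members first, by adjusted p), 6 genes each way in the contrasts with the other groups and among the most abundant called genes, and 4 per symbol class. A few other members called in a list are given by fold change. Members and lists were chosen with earlier results of these data known. The lists held 1257 genes, 1157 of them tested, of which 174 were higher and 57 lower. With 3 libraries a group a permutation test of 1 gene cannot pass, so none is given. A count of 0 was taken to allow up to 3 counts. Some results are not reported here because the items are withheld.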

Additional observations from a re-analysis of the deposited data

How the results depend on the processing

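Of 230 called genes of the naming rule, followed singly, 147 were called in every alternative that tested them. The call was lost in at least 1 for 83, and none changed direction in those run. The filter of 5 CPM tested 209 of the 230, and the fit of only the 2 groups 228. Genes higher in BSG than in NC numbered 847, against 1469 by DESeq2, 543 with the filter of 5 CPM, 1283 with the length trend removed and 1347 with that and the replicate block, and 424 to 1329 with 1 library left out. The 959 lower genes became 429 to 1227 with 1 library left out. The higher and lower counts were 520 and 569 without NC 1, 428 and 429 without NC 2, 424 and 452 without NC 3, 526 and 516 without BSG 1, 650 and 625 without BSG 3, and 1329 and 1227 without M-BSG 1. Leaving out BSG 1 and M-BSG 1 gave 843 and 816. Deviations of same-numbered NC and BSG libraries correlated at 0.174, 0.0356 and 0.0748, and those of differently numbered ones at -0.1245 to 0.06699. Whether the numbers pair the libraries was not tested. The replicate block gave 1016 higher and 1083 lower. Against M-BSG the 20 higher genes became 37 by DESeq2, 32 with no filter, 11 with the filter of 5 CPM and 3 to 24 with 1 library left out, and the count of 0 lower became 13 by DESeq2, 1 with library totals, 6 with no filter, 2 with the replicate block, 3 with the length trend removed, 5 with both, and 0 to 3 with 1 library left out. Against M-BSG-Hot the 116 higher genes became 295 by DESeq2, 60 with only the 2 groups, 222 with the length trend removed, 221 with the block as well, and 49 to 135 with 1 library left out. The 15 lower genes became 96, 3, 75 and 69 in the same order, 6 with library totals, 25 with no filter, 9 with the filter of 5 CPM, and 1 to 28 with 1 library left out. The cause of these shifts was not tested.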

Other observations

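Some genes had almost no counts in the control cells and were called higher in BSG. They were chosen after their values were seen: 62 genes were called and had at most 3 counts over the 3 NC libraries together, 18 of them with none. All entered the test through their counts in BSG or the magnetic groups, so the values are a description and support no call. Of the 62, 40 are protein coding and 19 are long non-coding RNA genes. Several are known from other cell types. CRTAM, a receptor of activated T and NK cells, had 2 counts in NC and 304 in BSG, a ratio of 145 (counting interval 39.8 to 1202). PTGER3, a prostaglandin E2 receptor, had 1 count and 277, a ratio of 264 (47.0 to 10470), and AZU1, a protein of neutrophil granules, 1 and 268, a ratio of 256 (45.5 to 10130). IL17F, a cytokine of T cells, had 1 and 158 counts. ELOVL3, an enzyme that lengthens fatty acids, had no count in NC and 163 in BSG, at least 51.8-fold higher against a limit of 3 counts over the group. TUBB1, a tubulin of platelets, had none and 112, at least 35.6-fold higher. The highest of the 62 was the non-coding LOC100506358, with 2 counts in NC and 770 in BSG. Of these genes 12 reached a mean of 1 CPM in BSG, and the others lay below it, some with only a few counts in a library.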
